A study of Mus musculus with 10 samples.

Results

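The genes described are Scn4b, Scn4a, Atp1b1, Fxyd1 and Hcn2, which encode 2 sodium channel subunits, 2 subunits of the sodium pump and 1 pacemaker channel. They were taken by name from the table of gene counts, which holds 54532 gene identifiers, and each of the 5 symbols matched 1 row. All 5 passed the filter on low counts, as did 13864 genes in all. RNA came from hearts of C57BL/6 mice aged 8 weeks. The saline group was 5 mice injected with saline, and the LPS group was 5 mice taken 24 h after lipopolysaccharide (LPS), the endotoxin of Gram-negative bacteria, which is used to model sepsis. No genetic change is named for either group, and the sources used here give neither sex nor dose nor route. For the saline mice they also give no time from injection to sampling. The labels of the LPS mice give 24 h, while headers of other deposited tables name 3 h for the LPS columns. The time therefore rests on the labels.

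Voltage-gated sodium channels consist of a pore-forming alpha subunit and auxiliary beta subunits, and their opening starts the action potential of the cardiomyocyte. The sodium pump then exports sodium in exchange for potassium. It is built from a catalytic alpha subunit and a beta subunit that the alpha subunit needs to reach the membrane, and FXYD proteins bind the pair and tune its affinity for sodium. HCN channels open on hyperpolarization, bind cyclic AMP, carry sodium and potassium, and are known for pacemaking in the sinoatrial node.

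The total count was between 15586690 and 16786516 in saline and between 14607969 and 17012372 in LPS libraries. Levels are in CPM, read counts divided by a library size that TMM scales (an edgeR method that aligns most genes between libraries), unless FPKM is named. Saline replicate 5 stood apart. In a principal component analysis of the 1000 most variable genes it lay at -0.563 on the first axis, saline replicates 1 to 4 lay between -67.0 and -55.1, and LPS libraries lay between 43.7 and 55.0. Values without it are therefore given for the genes described. The 10 cardiomyocyte markers (Myh6, Tnnt2 and others) were all tested. Their summed level was 44444 to 52827 CPM in saline and 48213 to 51327 CPM in LPS libraries, 0 of 10 passed the threshold by edgeR, DESeq2 or limma voom or had an unadjusted edgeR p under 0.05, and their median log2 fold change was 0.03. The edgeR test called 39.9% of all 13864 tested genes at an adjusted p under 0.05, with 18.9% (2617) rising and 21.0% (2916) falling. With total count scaling 1711 rose and 5774 fell, and with upper quartile scaling 1992 and 4407.

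Of the 5 genes, Atp1b1 alone passed the threshold, upward, so 1 of 5 rose and 0 fell. Across all tested genes 18.9% rose and 21.0% fell. The libraries of the groups did not overlap for 28.4% of tested genes, with LPS above for 14.3%, and among the 5 this was again Atp1b1 alone. At an unadjusted p under 0.05, 0 of the 5 fell by edgeR. Without saline replicate 5 the count was also 1 rising and 0 falling, and with DESeq2 it was the same. The median log2 fold change of the 5 was 0.17, against -0.02 over all tested genes. In bulk heart RNA, a change in the number of cells of a type and a change in RNA per cell cannot be told apart.

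**Figure D1:**
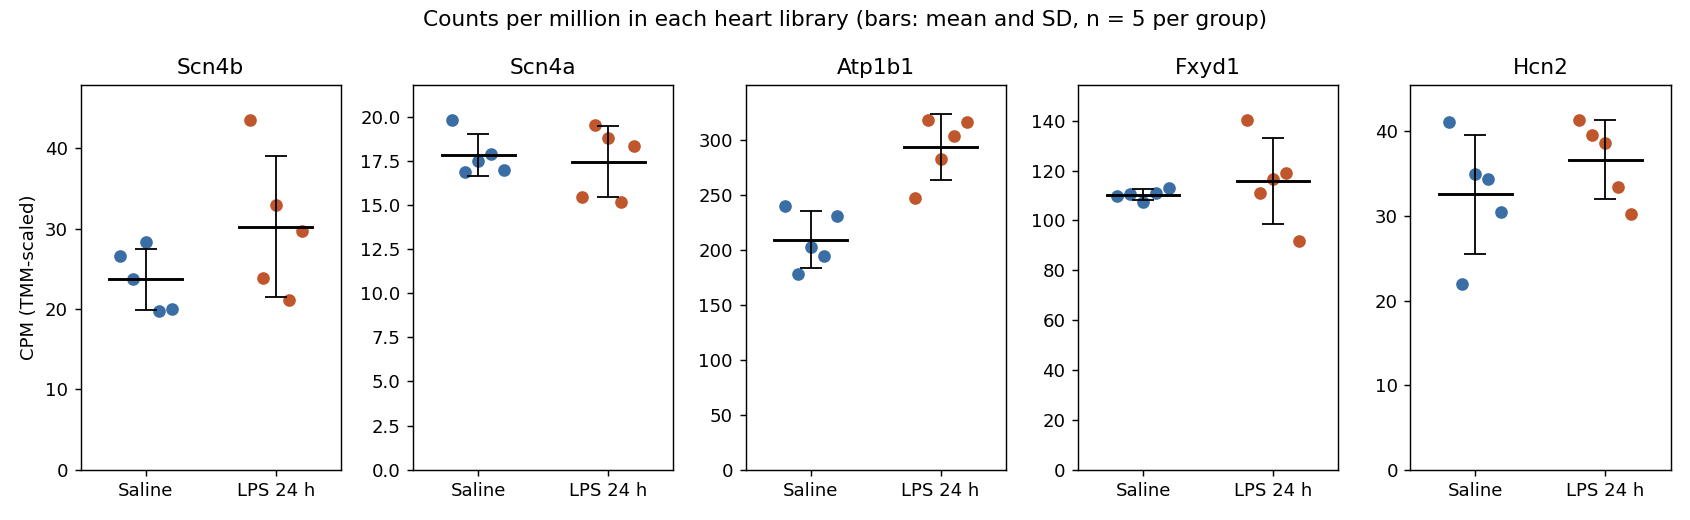
CPM of Scn4b, Scn4a, Atp1b1, Fxyd1 and Hcn2 in each library, with 1 panel a gene and a linear axis from 0. Points are libraries, the wide line is the group mean and the bars are 1 SD (n = 5 per group). The Atp1b1 points of the LPS group lie between 247 and 318 CPM, above all saline points, while the groups overlap in the other 4 panels.

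Atp1b1 encodes the beta 1 subunit of the sodium pump, which accompanies the alpha subunits to the cell surface. The gene (ENSMUSG00000026576) is protein coding and lies on the minus strand of GRCm38 chromosome 1, from 164437109 to 164458355. Saline replicates 1 to 5 were at 240, 178, 202, 194 and 231 CPM, and LPS replicates 1 to 5 were at 247, 318, 283, 304 and 316 CPM. Every LPS library was above every saline library, with LPS replicate 1 closest to the saline range. The group means, each of 5 libraries, were 209 ± 25.9 and 293 ± 29.6 CPM (SD). The log2 fold change of 0.49 ± 0.11 (SE) had an edgeR adjusted p of 0.00202. In linear terms Atp1b1 rose 1.40-fold, with a 95% interval from 1.20 to 1.64. Without saline replicate 5 the log2 fold change was 0.53 (edgeR adjusted p = 0.000942).

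The call of Atp1b1 depended on how libraries were scaled. Scaling by total counts gave a log2 fold change of 0.21 (edgeR adjusted p = 0.0875), and upper quartile scaling one of 0.33 (adjusted p = 0.0155). Total count scaling moved the median of all genes by -0.27 on the log2 scale. A change of scaling moves all genes nearly alike, so the place of Atp1b1 relative to that median cannot decide between scalings. Scaled to the 10 cardiomyocyte markers, an alternative chosen after seeing the data, the log2 fold change was 0.43 (adjusted p = 0.00314). Exons of Atp1b1 share 575 of 3081 bases with Nme7 on the other strand, and the sources used here do not say if strand was used in counting. Nme7 had 379 reads over the 10 libraries, against 38945 for Atp1b1.

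Atp1b1 is shown with its promoter because it is the gene of the 5 that rose, and Hcn2 beside it because its RefSeq start, like that of Atp1b1, equals the start of the deposited gene model. Each sequence runs 5′ to 3′ on the gene's strand, from 250 bases before to 50 after the start in RefSeq annotation of GRCm38.p6. Capitals mark the CCAAT box (CCAAT) and the GC box (GGGCGG), searched on both strands. Atp1b1 lies on the minus strand at chr1:164458306-164458605 and Hcn2 on the plus strand at chr10:79716384-79716683.
Atp1b1: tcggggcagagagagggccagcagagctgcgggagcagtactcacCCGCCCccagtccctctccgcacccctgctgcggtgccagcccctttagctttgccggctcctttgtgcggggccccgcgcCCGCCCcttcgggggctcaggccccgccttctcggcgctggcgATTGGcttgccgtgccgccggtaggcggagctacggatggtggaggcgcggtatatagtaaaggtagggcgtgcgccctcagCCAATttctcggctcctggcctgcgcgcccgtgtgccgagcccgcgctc
Hcn2: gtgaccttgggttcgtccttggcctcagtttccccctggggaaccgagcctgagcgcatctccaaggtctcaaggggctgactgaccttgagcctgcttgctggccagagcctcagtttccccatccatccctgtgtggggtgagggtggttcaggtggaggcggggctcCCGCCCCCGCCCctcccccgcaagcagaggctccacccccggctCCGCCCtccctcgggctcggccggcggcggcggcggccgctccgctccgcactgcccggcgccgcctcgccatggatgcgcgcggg

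The Atp1b1 window held 2 matches to the CCAAT box and 2 to the GC box, and the Hcn2 window held 0 and 3. Among 32851 RefSeq promoter windows of the same length, 37.4% held a CCAAT box and 35.7% a GC box. No match overlapped a match of another motif searched in either window. The TATA box (TATAAA) had 0 matches in both windows and was in 13.6% of all windows. Only these exact letters were searched, and the Atp1b1 window reads tatata before the start. The search therefore cannot decide if a TATA box is absent from it. Matches to the GAS motif of STAT factors (TTCNNNGAA, in 8.30% of all windows) were absent from the windows of all 5 genes. The NF-kappaB motif was in 8.46% of all windows and had 1 match each in those of Scn4a and Fxyd1. For those genes the RefSeq start lies 3898 and 2346 bases inside the deposited gene model.

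Fxyd1 encodes phospholemman, the FXYD protein of heart muscle, which inhibits the pump until it is phosphorylated. The gene (ENSMUSG00000036570) is protein coding and lies on the minus strand of GRCm38 chromosome 7, from 31051678 to 31057199. Saline replicates 1 to 5 were at 110, 110, 107, 111 and 113 CPM, and LPS replicates 1 to 5 were at 140, 111, 117, 119 and 91.9 CPM. Saline libraries lay close together, while LPS replicate 1 was above and LPS replicate 5 below all of them. The means were 110 ± 2.08 and 116 ± 17.4 CPM (SD, n = 5 per group), with a log2 fold change of 0.07 ± 0.10 (SE, edgeR adjusted p = 0.622) and a 95% interval of the fold from 0.902 to 1.22. The log2 fold change had the other sign with upper quartile (-0.09) and total count scaling (-0.20), also short of the threshold, was 0.08 without saline replicate 5 and ranged from -0.0042 (without LPS replicate 1) to 0.15 over all leave-one-out fits.

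Scn4b encodes the beta 4 subunit of sodium channels, a membrane protein with an immunoglobulin-like domain that modulates gating of the pore. The gene (ENSMUSG00000046480) is protein coding and lies on the plus strand of GRCm38 chromosome 9, from 45138395 to 45154152. Saline replicates 1 to 5 were at 26.6, 23.7, 28.3, 19.7 and 19.96 CPM, and LPS replicates 1 to 5 were at 43.5, 23.9, 33.0, 21.0 and 29.7 CPM. LPS replicates 2 and 4 lay inside the saline range and LPS replicates 1, 3 and 5 above it. The means were 23.7 ± 3.84 and 30.2 ± 8.79 CPM, with a log2 fold change of 0.35 ± 0.18 (SE, n = 5 per group, edgeR adjusted p = 0.141) and a 95% interval of the fold from 0.974 to 1.68. Single libraries weighed on this value. Without LPS replicate 4 the log2 fold change was 0.49 and passed (edgeR adjusted p = 0.0402), without LPS replicate 1 it was 0.19 (adjusted p = 0.343), and without saline replicate 5 it was 0.30 (adjusted p = 0.219). With total count scaling it was 0.09.

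Scn4a encodes the sodium channel pore best known from skeletal muscle. The gene (ENSMUSG00000001027) is protein coding and lies on the minus strand of GRCm38 chromosome 11, from 106318592 to 106353288. Saline replicates 1 to 5 were at 19.8, 16.9, 17.5, 17.9 and 16.99 CPM, and LPS replicates 1 to 5 were at 15.4, 19.5, 18.8, 15.2 and 18.3 CPM. The groups overlapped, with LPS replicates 1 and 4 below all saline libraries. The means were 17.8 ± 1.19 and 17.4 ± 2.02 CPM (SD, n = 5 per group), with a log2 fold change of -0.03 ± 0.11 (SE, edgeR adjusted p = 0.845) and a 95% interval of the fold from 0.836 to 1.15. It was -0.04 without saline replicate 5, from -0.05 to 0.04 over all leave-one-out fits, and -0.30 with total count scaling (edgeR adjusted p = 0.0578). Of 12 markers of skeletal muscle, 2 were tested and 0 passed by edgeR, and Myh4, Tnnc2 and Myod1 had 0 reads. Mybpc2, named after its values were seen, was at 12.2 and 18.9 CPM (unadjusted p = 0.0241, edgeR adjusted p = 0.0582) and rose by DESeq2 and limma voom. The 12 summed to 9.81 to 22.6 CPM over saline and 19.2 to 22.8 CPM over LPS libraries, and their part in the Scn4a reads was not tested.

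Hcn2 encodes an HCN channel found in working myocardium as well as in conduction tissue. The gene (ENSMUSG00000020331) is protein coding and lies on the plus strand of GRCm38 chromosome 10, from 79716634 to 79736108. Saline replicates 1 to 5 were at 41.1, 21.9, 34.9, 34.3 and 30.5 CPM, and LPS replicates 1 to 5 were at 41.4, 39.6, 38.7, 33.4 and 30.2 CPM. Saline replicate 2 was the low library, and the other saline libraries covered nearly the same range as the LPS libraries. The means were 32.6 ± 7.07 and 36.7 ± 4.67 CPM, with a log2 fold change of 0.17 ± 0.15 (SE, n = 5 per group, edgeR adjusted p = 0.387) and a 95% interval of the fold from 0.905 to 1.40. It was 0.08 without saline replicate 2, 0.15 without saline replicate 5 and -0.10 with total count scaling, short of the threshold in each.

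**Figure D2:**
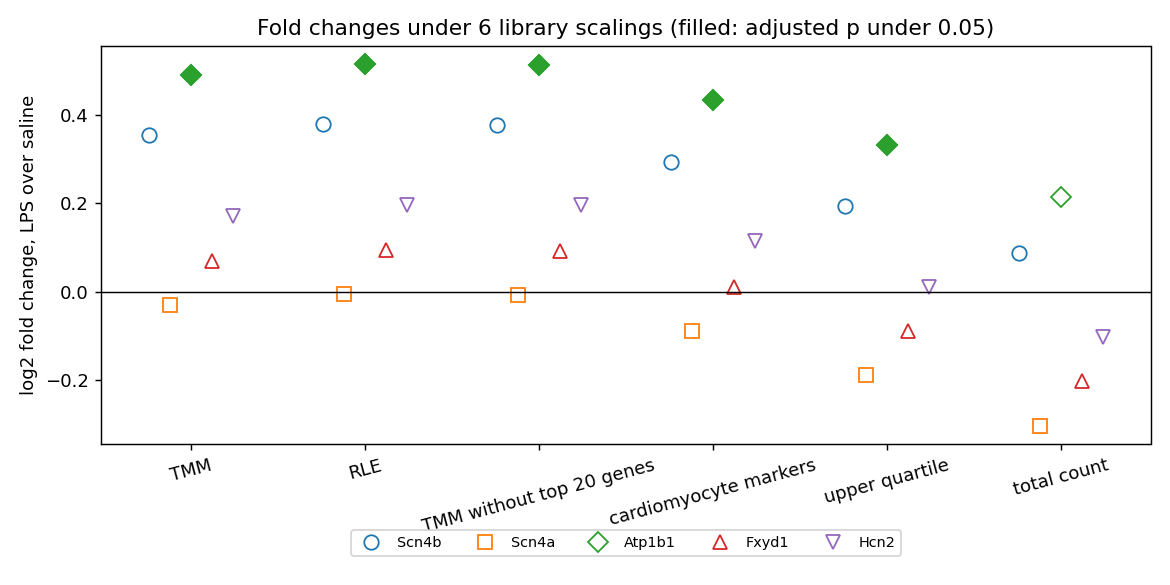
Log2 fold change of LPS over saline for each of the 5 genes under 6 ways of scaling the libraries, on a linear axis. Filled symbols have an edgeR adjusted p under 0.05 and open symbols do not. Atp1b1 is filled under 5 scalings, from 0.33 to 0.52, and open at 0.21 with total count scaling, where all 5 genes are lowest.

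Levels of different genes were compared per kilobase, on the authors' FPKM scale. That scale uses an adjusted library size, so FPKM differences between the groups also depend on the scaling. In saline hearts Atp1b1 was at 71.4 ± 9.01, Fxyd1 at 53.1 ± 1.12, Hcn2 at 10.7 ± 2.33, Scn4b at 4.996 ± 0.808 and Scn4a at 2.66 ± 0.175 FPKM (SD, n = 5). In LPS hearts the same genes were at 102 ± 10.5, 56.8 ± 8.39, 12.3 ± 1.53, 6.51 ± 1.91 and 2.66 ± 0.309 FPKM. The order held in 10 of 10 libraries, so neighbours in it differed in each library in the same direction. The 2 pump genes stood far above the 3 channel genes in both groups.

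Values of other sodium channel pores were also measured. Scn7a, a sodium channel relative that is not opened by voltage, fell from 37.8 ± 1.73 to 24.6 ± 4.51 CPM (SD, n = 5 each), with a log2 fold change of -0.62 ± 0.12 (SE, edgeR adjusted p = 0.00105). Its LPS libraries all lay below its saline libraries. Scn3a (0.46 ± 0.22, adjusted p = 0.112) and Scn10a (-0.36 ± 0.25, adjusted p = 0.276), neuronal pores with group means of 1.54 to 4.06 CPM, did not pass. With total count scaling Scn10a also fell (-0.63, edgeR adjusted p = 0.0464). Scn1a, Scn2a, Scn8a, Scn9a and Scn11a were too low to test, with at most 23 reads in 1 library.

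Of the sodium channel beta subunits, Scn3b fell, at low precision for this depth, with means of 1.33 ± 0.336 and 0.425 ± 0.196 CPM and a log2 fold change of -1.65 ± 0.36 (SE, n = 5 each, edgeR adjusted p = 0.00232). A filter of 1 CPM in 5 libraries removed it from the test. Scn2b had 46 reads in saline and 11 in LPS libraries and was not tested.

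**Figure D3:**
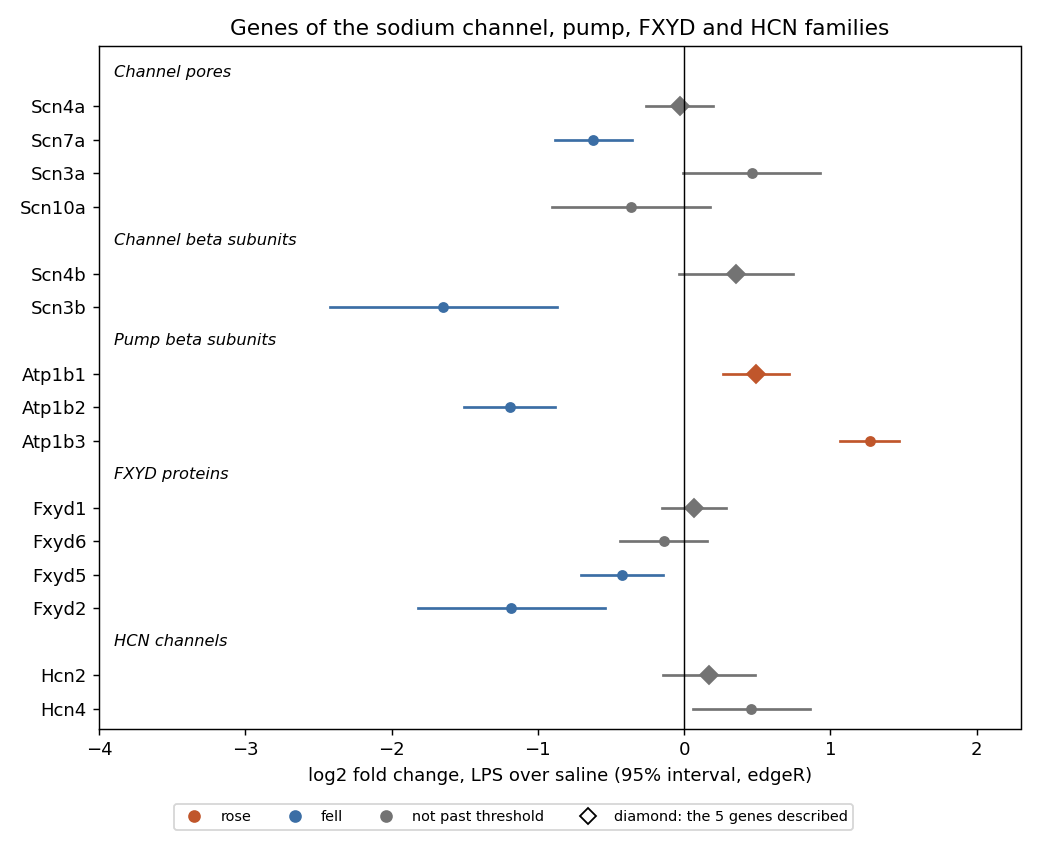
Log2 fold change of LPS over saline with its 95% interval for 15 genes of the pore, beta subunit, pump, FXYD and HCN families, from the edgeR fit. Diamonds are Scn4b, Scn4a, Atp1b1, Fxyd1 and Hcn2, and colour gives the call. The pump beta subunits lie apart, with Atp1b3 at 1.27, Atp1b1 at 0.49 and Atp1b2 at -1.19.

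The pump beta subunits moved in different directions. Atp1b3, encoding the beta 3 subunit, had means of 73.1 ± 7.12 and 176 ± 14.4 CPM (SD, n = 5 each) and rose with a log2 fold change of 1.27 ± 0.09 (SE, edgeR adjusted p = 3.96e-07). Atp1b2, encoding the beta 2 subunit known from glia and other cells, fell from 23.7 ± 2.54 to 10.4 ± 2.27 CPM (-1.19 ± 0.15, edgeR adjusted p = 2.18e-05). Both kept their call under every alternative tried, and the log2 fold changes with total count scaling were 0.99 and -1.47. Saline replicate 5 was at 85.8 CPM for Atp1b3, above the other saline libraries at 69.2 to 70.3 CPM, and at 19.5 CPM for Atp1b2, below the others at 23.3 to 25.6 CPM.

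The makeup of the beta subunit transcripts differed between the groups, although Atp1b1 itself was higher with LPS. Per kilobase and within each library, Atp1b1 made up 64.9% ± 2.52 of the reads of the 3 beta subunits in saline and 55.5% ± 3.01 in LPS hearts (SD, n = 5 per group). Atp1b3 made up 29.4% ± 2.11 and 43.0% ± 2.71, and Atp1b2 made up 5.65% ± 1.05 and 1.498% ± 0.411. The Atp1b1 share lay between 62.1% and 68.9% in saline and between 51.1% and 58.9% in LPS libraries. These shares need no scaling, the groups did not overlap in any of the 3, and they were set up after the fold changes were seen, so no test was made.

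**Figure D4:**
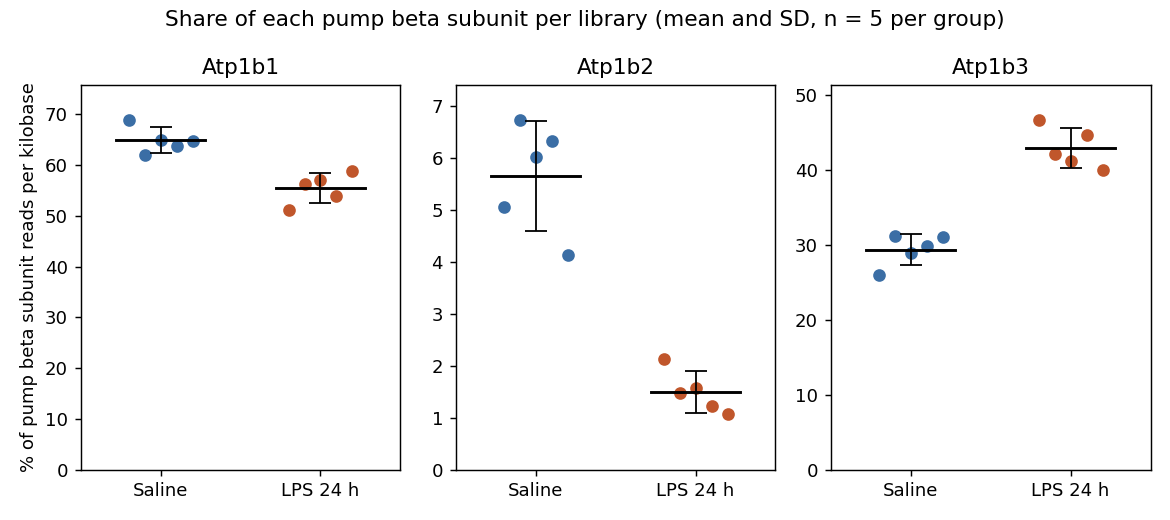
Share of Atp1b1, Atp1b2 and Atp1b3 in the reads per kilobase of the 3 pump beta subunits in each library, in percent, on linear axes from 0. Points are libraries, the wide line is the mean and the bars are 1 SD (n = 5 per group). Atp1b1 remains the largest share in both groups, at 64.9% and 55.5%, and Atp1b3 goes from 29.4% to 43.0%.

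Of the FXYD genes 4 were tested, and by edgeR 0 rose and 2 fell, against 18.9% and 21.0% of all tested genes. The count was the same at an unadjusted edgeR p under 0.05 and with DESeq2, but 4 genes are too few to read it as a trait of the family. Fxyd5, which encodes dysadherin, had means of 18.1 ± 2.4 and 13.5 ± 2.03 CPM (SD, n = 5 each) and fell, with a log2 fold change of -0.42 ± 0.13 (SE, edgeR adjusted p = 0.0182). Leaving out saline replicate 1, saline replicate 2, LPS replicate 2 or LPS replicate 4 ended that call (adjusted p up to 0.0733). Fxyd2, the gamma subunit of the kidney pump, fell from 1.89 ± 0.562 to 0.828 ± 0.219 CPM (-1.18 ± 0.30, edgeR adjusted p = 0.00583). Fxyd6 was at 29.7 ± 4.13 and 27 ± 5.53 CPM (adjusted p = 0.451, edgeR), with LPS replicate 1 at 36.6 CPM above the rest of its group. Fxyd1 made up 80.8% ± 2.33 of the reads per kilobase of the 4 genes in saline and 84.1% ± 1.16 in LPS hearts.

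Among the other HCN channels, Hcn4, the main channel of the sinoatrial node, was at 9.81 ± 3.09 and 13.5 ± 2.15 CPM (0.46 ± 0.19, adjusted p = 0.0634). It passed without saline replicate 1, which was at 15.2 CPM against 7.64 to 9.27 CPM in the other saline libraries (0.69, adjusted p = 0.00203, edgeR), with DESeq2, with no filter on low counts, and with scaling without the 20 most abundant genes. The log2 ratio of Hcn2 to Hcn4 per kilobase, taken within each library, was 2.68 ± 0.281 in saline and 2.38 ± 0.29 in LPS hearts (SD, n = 5 each), and the groups overlapped. A two-sided exact permutation test gave p = 0.143, or 0.238 adjusted over 5 ratios. Of 11 markers of conduction tissue, which include Hcn4, 9 were tested, and 2 rose, Irx3 among them, a share near the 18.9% over all tested genes. By edgeR 0 of the 9 fell (21.0% of all tested genes did), also at an unadjusted p under 0.05 and with DESeq2, which called 3 rising. They summed to 58.4 to 98.4 CPM over saline and 97.6 to 122 CPM over LPS libraries, none of the 11 was at 0 reads, and their part in the Hcn values was not tested.

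Of the 15 genes of these families described here, 2 rose (Atp1b1 and Atp1b3), 5 fell and 8 did not pass, while 18.9% of all tested genes rose and 21.0% fell. The 15 leave out tested genes of these families that are not reported here, so the count gives no direction for the families. The genes that fell were Scn7a, Scn3b, Atp1b2, Fxyd2 and Fxyd5. Several lists of cell type markers also held falling genes, to be read against the 21.0% that fell over all tested genes. All 8 endothelial markers (Pecam1, Cdh5 and others) fell, with a summed level of 833 to 1537 CPM in saline and 480 to 616 CPM in LPS libraries. Of 8 Schwann cell markers, 6 were tested, 3 fell and 0 rose by edgeR and DESeq2, with a summed level of 39.6 to 47.2 and 30.4 to 33.5 CPM. By edgeR 3 of 8 macrophage markers fell and 1 rose. Among tested markers of other cells, 2 of 8 for fibroblasts, 2 of 7 for mural cells, 1 of 6 for atrial cells and 1 of 3 for neurons fell. Median log2 fold changes were -0.17 for fibroblasts, -0.17 for mural cells, 0.94 for atrial cells and 0.13 for neurons. Of the atrial markers, limma voom called 3 rising and 1 falling. The part of any of these cells in the falling genes was not tested.

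Of 19 tested regulators that anchor or modulate sodium channels, 4 rose and 4 fell, shares near those over all tested genes (18.9% rose and 21.0% fell). Sntb2, which encodes the scaffold beta 2 syntrophin, had means of 41.5 ± 13.7 and 135 ± 13.1 CPM and rose by 1.70 ± 0.18 on the log2 scale (SE, n = 5 each, edgeR adjusted p = 1.21e-05). Ank2, encoding ankyrin B, an anchor of the sodium pump and the sodium-calcium exchanger, rose by 0.61 ± 0.10, and Cav3, encoding the caveolin of muscle, by 0.40 ± 0.11, which did not pass with upper quartile or total count scaling (0.24 and 0.13). Fgf11 and Fgf14, of the intracellular factors that bind the channel's tail, fell with log2 fold changes of -1.72 ± 0.22 and -1.0 ± 0.34, and the calmodulin gene Calm3 with -0.41 ± 0.09. Saline and LPS means were low for Fgf11 (3.77 and 1.14 CPM) and Fgf14 (1.83 and 0.922 CPM), and the groups overlapped for Fgf14. Fgf14 did not pass when saline replicate 1 or 2 or LPS replicate 1, 2 or 3 was left out (log2 fold changes from -0.97 to -0.77) or with a replicate block. Without saline replicate 5, 7 of the regulators rose. With total count scaling 2 rose and 8 fell, and with upper quartile scaling 2 rose.

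Of 26 tested genes of other sodium transport, 5 rose and 7 fell, also close to the 18.9% and 21.0% over all tested genes. Slc9a3r2, a scaffold for sodium-proton exchangers that endothelial cells also express, had means of 140 ± 32.7 and 12.9 ± 4.6 CPM and fell with a log2 fold change of -3.44 ± 0.28 (SE, n = 5 each, edgeR adjusted p = 6.25e-06). Slc8b1, the mitochondrial sodium-calcium exchanger, and Slc5a3, a sodium-coupled inositol transporter, fell with -1.69 ± 0.30 and -1.15 ± 0.25. The kinase gene Sgk3 rose by 0.88 ± 0.14. Slc8a1, the sodium-calcium exchanger of the cell membrane, named after its values were seen, was at 112 ± 31.8 and 148 ± 8.33 CPM (0.40 ± 0.15, adjusted p = 0.0564), and without saline replicate 5 it passed (0.57, edgeR adjusted p = 0.000758).

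The genes whose level followed each of the 5 most closely were found by the root mean square difference of log2 CPM, centred on each gene's own mean, over the 10 libraries and 10089 candidate genes. For Atp1b1 they were Pdlim5, Mtus1 and Polr2a, at differences of 0.0811, 0.0902 and 0.0909. Fxyd1 was closest to Ybx1 (0.0447), Mrpl44 and Samm50, and Scn4a to Zxdc (0.0583), Cnot11 and Ash2l. The nearest genes were farther off for Hcn2, with Fhl3 (0.103), Pgp and Alg1, and for Scn4b, with Tlnrd1 (0.152), Pf4 and Loxl2. Among the 5 genes the closest pair was Scn4a and Fxyd1 (0.231) and the farthest Scn4b and Atp1b1 (0.392). Each had nearer profiles outside the set, but with 10089 candidates that was likely beforehand and says nothing about the set.

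In the authors' deposited table of Reactome terms, Atp1b1 was listed among the differential genes of 7 terms, as an up gene in each, and Scn4b, Scn4a, Fxyd1 and Hcn2 were listed in 0. The authors' adjusted p of these 7 terms lay between 0.253, for ion transport by P-type ATPases with 14 up and 8 down genes, and 1. For the term Phase 0 (rapid depolarisation) the authors' deposited table gave 2 up and 8 down genes and an adjusted p of 1.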

How the data were processed

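Heart RNA of 5 saline and 5 LPS mice was sequenced. The authors deposited counts per gene and FPKM (scaled to the exon length of the gene and an adjusted library size), and p-values per Reactome term. That adjusted size was 0.947 to 1.09 times the total count in saline and 0.775 to 0.899 times in LPS libraries. Bowtie 0.12.2 and mm9 are named, with no role, per the submitters' processing notes. Of 54532 identifiers, 53499 have the same start and end in GENCODE M21, so coordinates are given as GRCm38. The counting tool and strand setting: not given in the sources used here. Headers of the other 2 tables name the LPS columns for 3 h, and their 20 columns were not used. Samples were grouped by their labels (24 h).

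Tests on the counts used edgeR 4.0.16 in R 4.3.3: filterByExpr defaults (minimum count 10, total 15), TMM factors, quasi-likelihood F-test with robust dispersions, Benjamini-Hochberg adjustment over all tested genes, threshold 0.05. The pipeline was tested on data simulated with TMM library sizes, which cannot test the choice of scaling. SE came from the F statistic. Ratios used exact permutation tests over 252 assignments (smallest p 0.00794; scipy 1.17.1). Alternatives were DESeq2 1.42.0, limma voom 3.58.1, other scalings (RLE, upper quartile, total count, without the 20 most abundant genes), other filters (none, 1 CPM in 5 libraries), no robust dispersion, a replicate block, and leaving out each library; scaling to 10 cardiomyocyte markers was added after seeing the data. The labels number mice and name no batch; where nothing says how they were handled, p-values measure the spread between these libraries.

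The 5 genes and the lists were chosen with earlier results of these data known. Named were all tested genes of the pore, beta, pump, FXYD and HCN lists, from the other 2 lists the 3 largest changes in the more frequent direction and 2 in the other (3 each where equal), and the 3 nearest profiles of each gene with a mean of at least 5 CPM. Some genes that this rule names are not reported here.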

Additional observations from a re-analysis of the deposited data

Results flagged for a closer look

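Of 50 groups of 5 values examined (20 genes and 5 ratios, in saline and LPS), 3 had 1 library far from the others by Dixon's criterion, which chance gives for about 1 in 20 groups. Saline replicate 5 was at 85.8 CPM for Atp1b3, above the other saline libraries at 69.2 to 70.3 CPM. LPS replicate 1 was at 36.6 CPM for Fxyd6, above the others at 22.4 to 25.8 CPM. Saline replicate 1 was at 15.2 CPM for Hcn4, above the others at 7.64 to 9.27 CPM. None of the values of Scn4b, Scn4a, Atp1b1, Fxyd1 and Hcn2 stood apart in this way.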

How the results depend on the processing

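The call of Atp1b1 held in 20 of 21 alternatives and was lost with total count scaling (log2 fold change 0.21), which left 0 of the 5 genes rising. Most of the 21 changed something other than the scaling, such as the 10 leave-one-out fits, so 20 is not a count of scalings. TMM factors did not overlap between the groups, at 1.00 to 1.15 in saline and 0.829 to 0.958 in LPS libraries. The 5 genes gave 1 or 2 rising without single libraries, 2 without LPS replicate 4, where Scn4b passed, and its log2 fold change then ranged from 0.19 to 0.49. Scn4a, Fxyd1 and Hcn2 passed under none of the 21 alternatives. Total count scaling gave 9 rising and 25 falling genes of the 65 tested over all lists, against 14 and 16, and turned Gpd1l from 0.00 to a fall (log2 fold change -0.27; the cause was not tested). It called 1711 genes rising and 5774 falling over the whole table, and upper quartile scaling 1992 and 4407, against 2617 and 2916, so rising genes were 22.9% and 31.1% of those called, against 47.3% with TMM.

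The labels do not say that replicate numbers pair the groups, and correlations over so few libraries cannot decide it. Same-numbered libraries had deviations from their group means that correlated between -0.0885 and 0.216, and 1 of 5 saline libraries correlated best with its own number. With the replicate block Atp1b1 had a log2 fold change of 0.49 (edgeR adjusted p = 0.00826), no call among the 5 genes changed, and 2582 genes rose and 2836 fell. Depth limits genes near 1 CPM, such as Scn3b, Fxyd2, Fgf11 and Fgf14.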
